A study of Mus musculus with 12 samples.

Results

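The genes that write, copy, read and remove DNA methylation were examined at their own loci in mouse retina with and without the TET enzymes. The set held 9 genes: Dnmt1, Uhrf1 and Uhrf2 for maintenance, Dnmt3a and Dnmt3b for de novo methylation, Mbd2 and Mbd3 as readers, and Tdg and Mbd4 as glycosylases. The regions taken were all rows of the 2 deposited lists of differentially methylated regions (DMRs) that shared at least 1 bp with one of these genes (GENCODE M21, mm10) or with the 5 kb on either side of it. This gave 99 of 193836 regions from whole-genome bisulfite sequencing (WGBS) and 217 of 592906 regions from bACE-seq. All 9 genes had at least 1 region in each list.

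Methyl groups are placed on cytosines of CpG dinucleotides by DNA methyltransferases. DNMT3A and DNMT3B methylate new sites, whereas DNMT1, which UHRF1 recruits to half-methylated DNA behind the replication fork, copies the pattern to the new strand. UHRF2 is a relative of UHRF1 whose SRA domain binds 5-hydroxymethylcytosine (5hmC). The TET enzymes oxidise 5-methylcytosine (5mC) to 5hmC and further to forms that the glycosylase TDG cuts out for base excision repair. MBD4 removes thymine from T:G mismatches, such as those left when 5mC is deaminated. MBD2 binds methylated CpGs, and MBD2 and MBD3 are alternative subunits of the NuRD remodelling complex, MBD3 with little preference for methylated DNA.

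The samples were whole retinas of postnatal day 21 (P21) mice of the C57 BL/6J strain, taken from Cre- controls, whose genotype is labelled WT with no loxP alleles named, and from Tet tcKO animals, in which Tet1, Tet2 and Tet3 (all loxP/loxP) were deleted by Chx10::Cre-GFP. Each assay had 3 libraries of each genotype, and the study pooled retinas of 2 animals for a sample. Chx10::Cre-GFP is active in retinal progenitors and is known to be mosaic, so vessels, microglia and any cell that escaped Cre keep their Tet genes. The study bred Cre-positive animals together so that the transgene was present in both copies. WGBS reads 5mC and 5hmC together, and bACE-seq reads 5hmC alone. The lists give 1 mean level per genotype for each region, so no spread between replicates, no depth and no test could be computed, and they do not show the deletion itself or markers of the cell types present. A level is the mean modified share over the CpGs of a region, in percent, as estimated by the authors' DMR caller with smoothing over neighbouring CpGs. A change is Tet tcKO minus Cre- in percentage points. A region is called a gain where Tet tcKO had the higher mean and a loss where it had the lower one, and the words rose and fell refer to regions in the authors' lists. In whole retina, a change in every cell and a change in the share of cells of a type cannot be told apart.

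Total modification rose at nearly every region listed for these genes, and 5hmC fell at each one. Of the 99 WGBS regions, 98 were gains and 1 was a loss, at Dnmt3a. Over the whole WGBS list 98.6% of regions were gains. All 217 bACE-seq regions were losses of 5hmC. In the whole bACE-seq list 0.0353% of regions were higher in Tet tcKO, and 0.401% of protein-coding genes had such a region within the gene or 5 kb of it. Weighted by CpGs, the level of the 98 WGBS gains rose from 56.1% to 73.0%, a change of 16.9 points, beside 17.4 points over all gains of the list. The 5hmC level of the 217 losses fell from 19.3% to 4.75%, so that the level in Tet tcKO was 24.6% of that in Cre-, beside 24.0% over the whole list. Cytosines without 5hmC, unmodified or methylated, that fail to be converted are also read as 5hmC in bACE-seq. The lists do not separate this background, so a level in Tet tcKO is signal that cannot all be taken as 5hmC.

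The 9 genes differed widely in how much of their locus was involved. Gains covered 22.5% of the bases of the Mbd2 locus and 20.5% of the Dnmt3a locus. At the other 7 loci they covered between 2.84% (Dnmt3b) and 10.9% (Mbd3), with 2.91% at Dnmt1 and 3.97% at Mbd4. The median over the 9 loci was 7.72%, and the median over all 21938 protein-coding genes was 3.36%. Among all genes, Mbd2 stood at percentile 96.7 and Dnmt3a at percentile 95.8, whereas Dnmt1 and Dnmt3b stood at percentiles 46.5 and 46.0. Having a gain at all is common: 76.8% of protein-coding genes had at least 1, as did 9 of 9 members. Losses of 5hmC covered 73.2% of the Dnmt3a locus, 59.2% of the Mbd2 locus and 52.5% of the Mbd3 locus, against 14.4% at Mbd4. Their median was 39.1% over the 9 loci and 27.7% over all genes, of which 88.3% had at least 1 such loss. Counted by CpGs and not by bases, the gap to all genes was smaller. Losses of 5hmC held a median of 39.0% of CpGs over the 9 loci and 37.2% over all genes, and gains held 8.65% and 6.18%. At Mbd3, losses held 36.2% and gains 6.76% of CpGs. These shares were 72.4% and 26.6% at Dnmt3a, and 65.1% and 27.1% at Mbd2.

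**Figure D1:**
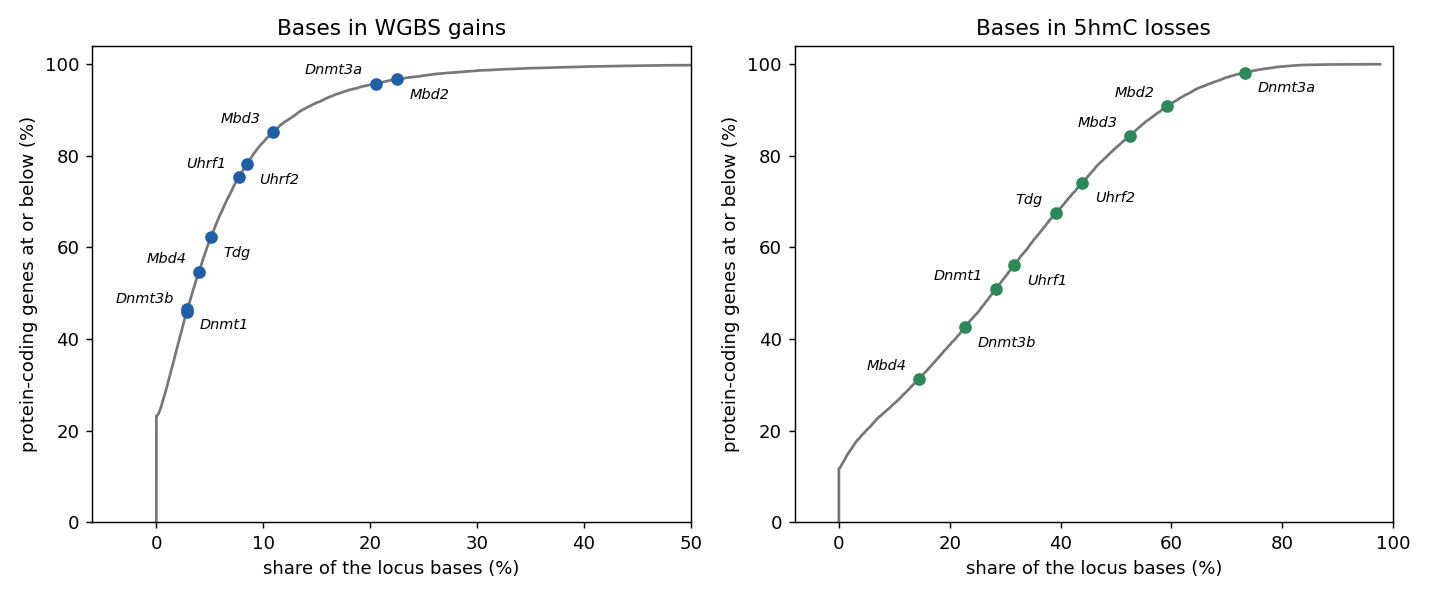
Share of the bases of each locus (gene with 5 kb on each side, %) inside WGBS gains (left) and inside 5hmC losses (right), on the horizontal axis. The grey line gives the percentage of the 21938 protein-coding genes at or below that share, and the points are the 9 genes. Dnmt3a and Mbd2 lie at the upper end of both curves, and Dnmt1 and Dnmt3b lie near the middle.

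Most gains lay in introns, which also made up most of the bases of the loci. Of the 98 gains, 73 lay in introns alone, 12 touched an exon and 13 lay outside the gene. Outside the start windows, 2 kb on each side of a coding start, the 9 loci held 313381 intronic and 35157 exonic bases. Their flanks held 28023 bases upstream and 45000 downstream, and the start windows held 49815. Pooled over the 9 loci, gains covered 13.4% of intronic bases outside the start windows, beside 5.46% over all protein-coding genes, and 6.41% of exonic bases, beside 6.38%. The intronic value came from few genes. Introns of Dnmt3a were covered to 23.5% and those of Mbd2 to 22.5%. Those of Uhrf1 and Uhrf2 were covered to 5.80% and 8.15%, those of Dnmt1, Dnmt3b and Tdg to 2.32%, 4.03% and 3.29%, and the introns of Mbd3 and Mbd4 outside those windows held no gain. At Mbd3 these introns were only 514 bp with 5 CpGs, and its intronic gain lay inside the start windows.

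Start sites were counted as the first bases of protein-coding transcripts, of which the 9 genes had 26 at distinct positions. Within 2 kb of a start, 8 of 9 members had a WGBS gain, beside 51.3% of all protein-coding genes, and 9 of 9 had a 5hmC loss, beside 79.9%. Mbd4 was the member without a gain there. Counted by CpGs, the start windows were close to those of all genes. Gains held 8.77% of their CpGs, beside 8.87% over all protein-coding genes, and 5hmC losses held 21.3%, beside 23.2%. By bases these shares were 11.3% beside 7.74%, and 37.0% beside 26.2%. A gene with more starts also has more windows in which a gain can fall. With the start of the gene only, 6 members had a gain. The start sites themselves were mostly outside the regions. None of the 26 lay under a gain, beside 5.81% of the 41525 distinct starts of all protein-coding genes. The single WGBS loss covered 2 of them, and 3, from 2 genes, lay under a 5hmC loss, beside 0.308% and 13.3% of all starts. Within 500 bp, 3 starts of 2 genes had a gain and 8 starts of 5 genes had a 5hmC loss, beside 18.8% and 39.8% of all starts. Starts of 1 gene often lie close together and share a region. The surroundings of these starts were rich in CpGs, with a median of 81 CpGs within 500 bp and a range from 4 to 165.

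**Figure D2:**
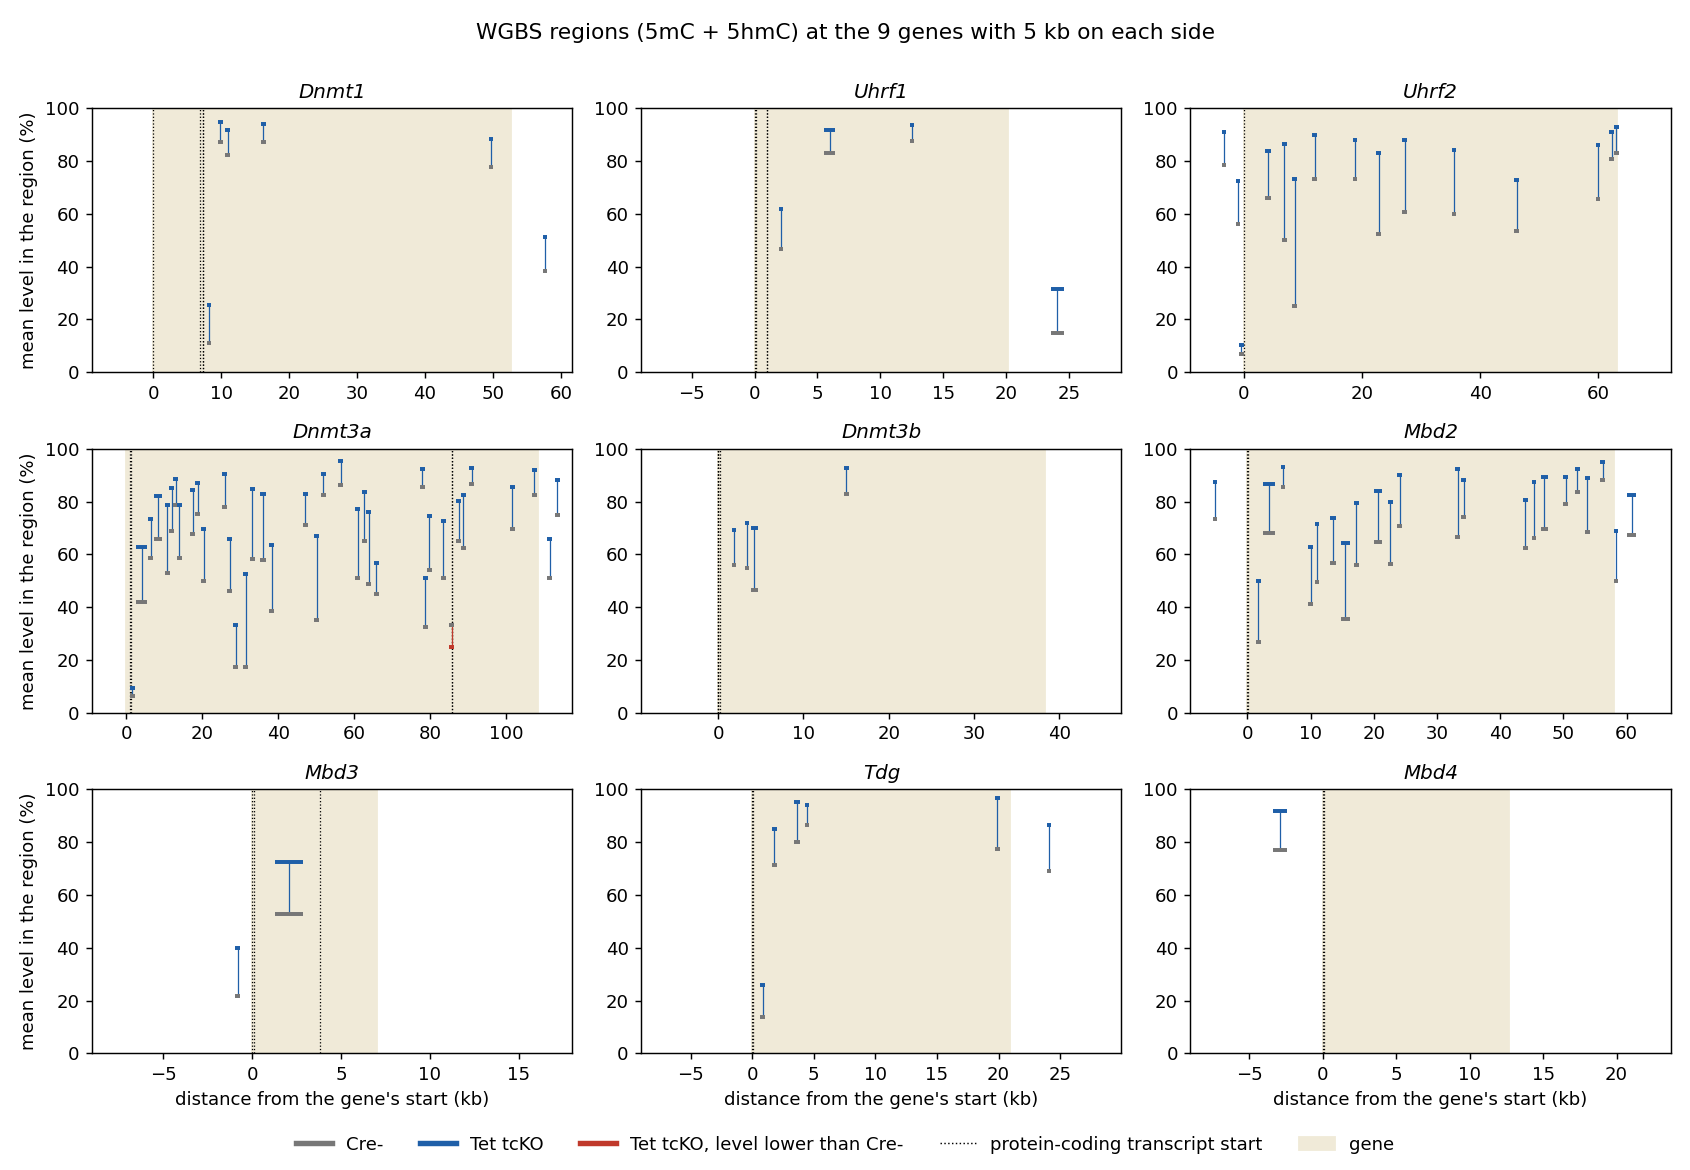
Mean WGBS level (%, 5mC and 5hmC together) of each of the 99 regions against the distance of the region from the gene's start (kb, in the direction of transcription), with 1 panel per gene. Grey bars are Cre-, blue bars Tet tcKO, red marks the only region lower in Tet tcKO, and short regions are drawn at a minimum width. Gains fill the Dnmt3a and Mbd2 genes and are few at Dnmt1, Dnmt3b, Mbd3 and Mbd4.

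Dnmt1, the maintenance methyltransferase, lies on chr9:20907209-20959888 on the minus strand. Its locus had 6 gains and 32 losses of 5hmC. The gain with the largest area statistic, the score by which the authors' caller sums evidence over a region, lay at chr9:20951445-20951913, 692 bp downstream of the nearest coding start, over annotated UTR and intron. Its 18 CpGs rose from 10.9% to 25.6%. The other 5 gains had higher control levels, from 38.2% to 87.2%, and none of the 6 rose by 20 points or more. The gene's first start lies 6909 bp upstream of the next and had only 4 CpGs within 500 bp, and no gain lay within 2 kb of it.

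5hmC was low along most of Dnmt1. The loss with the largest area statistic, chr9:20946061-20949155 in intron near the 5' end, fell from 22.4% to 5.18% over 54 CpGs. Its neighbour at chr9:20943655-20945860 fell from 20.6% to 4.46%. In the other 30 regions the Cre- level was between 4.09% and 15.1%, with a median of 7.32%. Weighted by CpGs, the Cre- level of the Dnmt1 regions was 10.7%, the lowest of the 9 genes, beside 22.7% at Dnmt3a, the highest.

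Uhrf1, which recruits DNMT1, lies on chr17:56303321-56323486 and had 4 gains and 17 losses of 5hmC. Inside the gene the gains were at 46.5%, 83.2% and 87.5% in Cre- and rose to 61.8%, 91.9% and 93.7%. The gain with the largest area statistic, chr17:56326903-56327900, lay downstream and inside the neighbouring gene Kdm4b, and its 20 CpGs rose from 14.8% to 31.4%. The strongest 5hmC loss, chr17:56304954-56305968, spanned coding sequence, UTR and intron and fell from 12.4% to 2.81%. The median Cre- level of 5hmC was 9.81% over the 17 regions, and only 1 of them was at 20% or more. This region, chr17:56327900-56330621, at 28.7% in Cre-, began in the downstream flank and lay mostly beyond the 5 kb limit, over Kdm4b.

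Uhrf2 lies on chr19:30030513-30093722 and differed from Uhrf1 in its levels. It had 15 gains, 6 of them of 20 points or more and 34 losses of 5hmC. The strongest gain, chr19:30034069-30035189 in the first intron, rose from 66.0% to 83.9% over 21 CpGs. The median Cre- level of 5hmC over its regions was 19.8%, and 17 of 34 were at 20% or more. The highest 5hmC level at any of the 9 genes was at chr19:30053501-30054241 in an intron of Uhrf2, where 5 CpGs fell from 50.1% to 17.2%. Further along the same gene, 4 CpGs at chr19:30062309-30062633 fell from 31.4% to 0.877%, which left 2.79%, the smallest share kept in any of the 217 regions. These 2 regions were picked after their values were seen. The 5hmC loss of Uhrf2 with the largest area statistic, chr19:30097994-30101945, fell from 14.7% to 4.22% and lay mostly beyond the 5 kb limit, over the gene Gldc.

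The densest Uhrf2 gain and the one with the largest rise are shown, since they mark the range of the gains at this gene. They are given on the plus strand of GRCm38, the coding strand, with each CpG in capitals. The first, chr19:30030091-30030190, lay upstream, 323 bp from the start site. It rose from 6.86% to 10.3%, and the printed stretch, extended by 1 base so that the last CpG is whole, holds 15 CpGs in 101 bp.
Uhrf2 upstream gain: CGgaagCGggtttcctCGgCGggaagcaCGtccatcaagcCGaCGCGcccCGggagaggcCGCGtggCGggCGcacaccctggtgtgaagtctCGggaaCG
The second, chr19:30039093-30039259, lay inside coding exon 2 of 16 (234 bp long) and rose from 25.1% to 73.1%. This was the largest rise at any of the 9 genes, and its 168 printed bases hold 5 CpGs.
Uhrf2 exon gain: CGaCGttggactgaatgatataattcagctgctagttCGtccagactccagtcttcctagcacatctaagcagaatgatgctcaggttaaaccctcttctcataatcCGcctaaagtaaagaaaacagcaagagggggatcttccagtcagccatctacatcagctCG
The first was densely packed with CpGs and stayed almost unmodified in both genotypes, while the second had few CpGs and changed from mostly unmodified to mostly modified. No 5hmC loss overlapped the exon gain, and the nearest bACE-seq region was 639 bp away. None of the 30-base words of either region occurred elsewhere on the assembled chromosomes.

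Dnmt3a, the main de novo methyltransferase of neurons, lies on chr12:3806007-3914443 and had 37 gains, 1 loss and 48 losses of 5hmC. The gains ran through the whole gene, and 12 of them were of 20 points or more. The one with the largest area statistic, chr12:3808622-3811469, began 1462 bp after a start site, and its 37 CpGs rose from 41.8% to 62.7%. The largest rise was at chr12:3836967-3838035 in an intron, from 17.4% to 52.4% over 13 CpGs. A gain over coding sequence, UTR and intron, chr12:3834269-3835355, rose from 17.3% to 33.1% over 25 CpGs, in a stretch where the overlapping 5hmC region had only 8.29% in Cre-. Losses of 5hmC were long: their median length was 1330 bp, and the strongest, chr12:3856432-3867476, spanned 11045 bp and fell from 25.0% to 6.97% over 123 CpGs. It also covered the antisense gene Dnmt3aos.

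Dnmt3a is transcribed from 2 groups of start sites. Those of Dnmt3a-201 and Dnmt3a-218 make the long protein and lie in a CpG-rich stretch, with 158 and 165 CpGs within 500 bp. Those of Dnmt3a-205 and Dnmt3a-203 lie 85721 and 85737 bp into the gene, where the shorter isoform DNMT3A2 begins, and have 51 and 49 CpGs within 500 bp. The first group had a gain 356 bp downstream, chr12:3807516-3807727, in an intron. It rose from 6.47% to 9.27% over 32 CpGs, the smallest rise among the 98 gains, and no 5hmC loss overlapped it. The second group lay under the only WGBS loss of the set. This loss, chr12:3891713-3891810, covered both start sites over UTR and intron, and its 5 CpGs fell from 33.1% to 24.8%. A WGBS loss was found within the gene or 5 kb of it at 4.90% of protein-coding genes, within 2 kb of a start at 1.63% and over a start at 0.351%.

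The DNA of these contrasting sites is shown for the dense gain near the long isoform's start and for the 250 bases before the start of Dnmt3a-205, whose last 15 bases belong to the WGBS loss. Both are on the plus strand of GRCm38, the coding strand, at chr12:3807516-3807728 and chr12:3891478-3891727, and CpGs are in capitals.
Dnmt3a dense gain: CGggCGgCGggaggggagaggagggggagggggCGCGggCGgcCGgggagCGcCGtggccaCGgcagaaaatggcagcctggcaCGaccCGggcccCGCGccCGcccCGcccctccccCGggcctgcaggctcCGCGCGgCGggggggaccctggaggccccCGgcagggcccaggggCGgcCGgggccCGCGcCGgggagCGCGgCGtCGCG
Dnmt3a-205 upstream: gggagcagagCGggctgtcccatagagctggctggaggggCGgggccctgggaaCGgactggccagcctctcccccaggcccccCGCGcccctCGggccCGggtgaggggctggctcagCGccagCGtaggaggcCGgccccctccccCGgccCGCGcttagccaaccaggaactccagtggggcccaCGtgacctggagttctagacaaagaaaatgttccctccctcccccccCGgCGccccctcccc
The first holds 32 CpGs in 213 bp and is 86.4% G and C. The second holds 16 CpGs in 250 bp and is 73.6% G and C.

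5hmC fell on both sides of the internal start as elsewhere in the gene. The region over it, chr12:3891713-3892804, fell from 8.81% to 2.76% over 33 CpGs, and the one just before it, chr12:3890864-3891613, fell from 9.35% to 2.56% over 36 CpGs. The nearest WGBS gains were at 50.9% and 65.2% in Cre-, 2072 bp upstream and 1702 bp downstream of the nearest start, and rose to 72.5% and 80.3%. At the start the WGBS level fell by 8.34 points, and 5hmC in the longer region over it fell by 6.06 points, but the regions differ in their CpGs and neither value has an error.

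**Figure D3:**
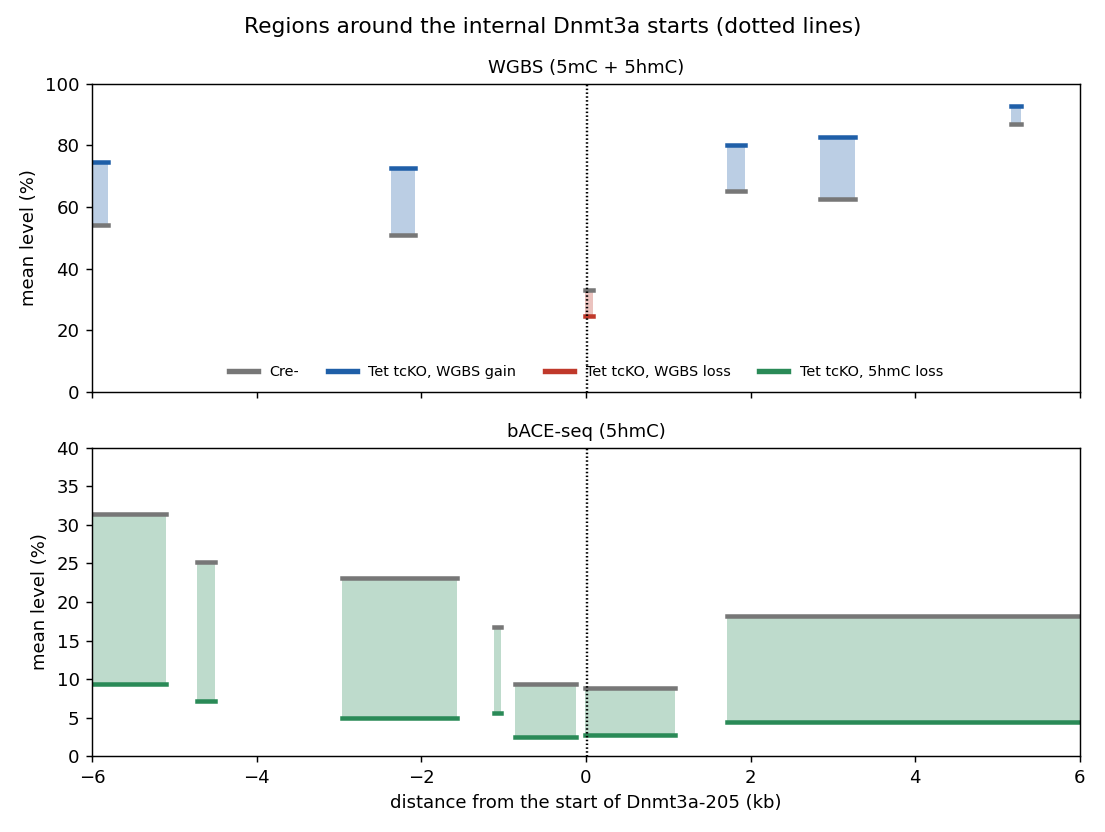
Mean level (%) of the regions within 6 kb of the start of Dnmt3a-205 (horizontal axis, kb), for WGBS (top) and bACE-seq (bottom). Grey lines are Cre- and coloured lines Tet tcKO. The WGBS level fell from 33.1% to 24.8% in the short red region at the start and rose in the blue regions around it, while 5hmC fell in all regions shown.

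Dnmt3b, the other de novo enzyme, lies on chr2:153649450-153687730 and had 4 gains and 19 losses of 5hmC. The gains lay in introns, 3 of them within 5 kb of the first start. The strongest, chr2:153653322-153654096, rose from 46.3% to 69.8% over 14 CpGs. The strongest 5hmC loss, chr2:153651910-153653594, fell from 14.8% to 4.29% over 33 CpGs. The fourth, 14710 bp from the nearest start, rose from 82.9% to 92.8%, and the rest of the gene held no gain. Gains took up 2.84% of this locus and 5hmC losses 22.7%, against 20.5% and 73.2% at Dnmt3a, values that have no replicate error.

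The reader Mbd2 lies on chr18:70568189-70626131 and had 23 gains and 38 losses of 5hmC. Of the gains, 9 were of 20 points or more. The strongest, chr18:70570648-70572518 in an intron 2314 bp after a start, rose from 68.2% to 86.6% over 29 CpGs. The largest rise was 28.6 points, at chr18:70582972-70584371, from 35.7% to 64.2%. The gain closest to the start, chr18:70569487-70570348, rose from 26.8% to 49.9%. 5hmC reached 33.3% in Cre- at chr18:70573270-70576920, where 48 CpGs fell to 7.47%. Gains reached past the 3' end, where they covered 41.1% of the downstream flank.

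Mbd3, with a gene of only 7012 bp at chr10:80392539-80399550 on the minus strand, had 2 gains and 8 losses of 5hmC. The gain chr10:80396703-80398268 lay in an intron, and its 22 CpGs rose from 52.7% to 72.4%. The 5hmC loss over the internal start of Mbd3-202, chr10:80394663-80397700, fell from 19.1% to 5.39% over 63 CpGs.

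The other Mbd3 gain, chr10:80400216-80400505, lay 666 bp upstream of the first start, and its sequence is printed as an upstream gain that began low without dense CpGs. Its 6 CpGs rose from 21.8% to 39.8%. The sequence is given on the minus strand of GRCm38, the coding strand, for chr10:80400216-80400506, with CpGs in capitals.
Mbd3 upstream gain: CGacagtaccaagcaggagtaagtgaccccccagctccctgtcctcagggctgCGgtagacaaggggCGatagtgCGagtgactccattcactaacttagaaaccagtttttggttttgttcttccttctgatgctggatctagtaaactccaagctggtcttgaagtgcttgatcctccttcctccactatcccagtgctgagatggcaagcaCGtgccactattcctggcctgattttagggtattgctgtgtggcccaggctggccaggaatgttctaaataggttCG
Its 6 CpGs in 291 bp contrast with the 102 CpGs found within 500 bp of the gene's first start, where no gain lay. The overlapping 5hmC region was at 8.72% in Cre- and 1.90% in Tet tcKO.

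Tdg, the glycosylase that removes oxidised 5mC, lies on chr10:82629828-82650799 and had 6 gains and 13 losses of 5hmC. An intron near its start carried 1 long 5hmC region, chr10:82630621-82635510, in which 70 CpGs fell from 29.0% to 6.49%. The other Tdg regions were lower in Cre-, and 3 of the 13 were at 20% or more. Across that long region 4 WGBS gains were listed. The strongest, chr10:82633263-82633685, rose from 80.3% to 95.2%, and the one nearest to the start, chr10:82630510-82630838, rose from 13.7% to 25.8%. A further gain, chr10:82649698-82649784 in the 3' part of the gene over UTR, rose from 77.5% to 96.8%, but 100% of its 30-base words also occurred elsewhere on the assembled chromosomes. Whether the longer reads were unique there was not tested. The last gain lay downstream, in Glt8d2.

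Mbd4, the mismatch glycosylase, lies on chr6:115840697-115853371 on the minus strand. It had the fewest gains and the smallest share of its locus in 5hmC losses. By bases, Mbd4 did not have the smallest share in gains (3.97%), but by CpGs it did (2.67%). Its 1 gain, chr6:115855827-115856727, lay upstream inside the neighbouring gene Ift122 and rose from 76.9% to 91.9% over 7 CpGs. The gene itself held no gain. Of its 8 losses of 5hmC, the strongest, chr6:115837601-115838128, fell from 16.0% to 5.85% and lay downstream, over Efcab12 and Gm44206.

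**Figure D4:**
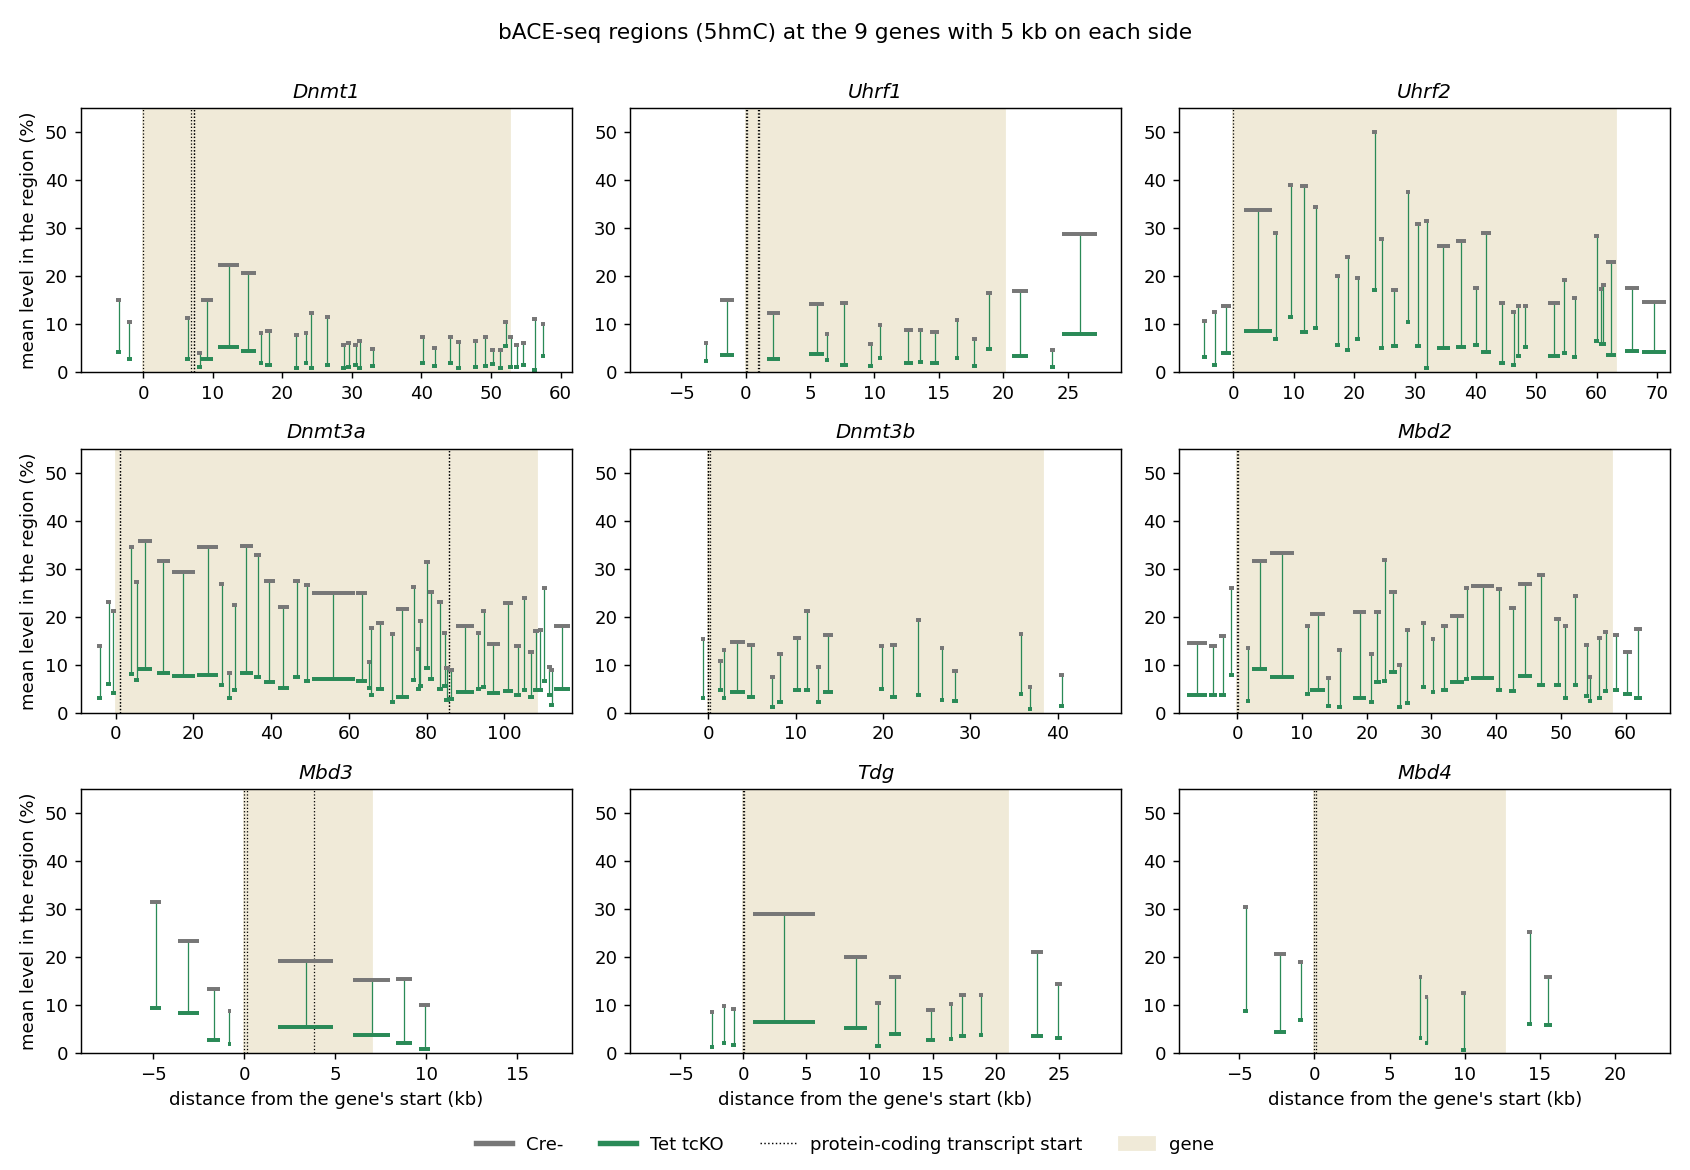
Mean 5hmC level (%, bACE-seq) of each of the 217 regions against the distance from the gene's start (kb), with 1 panel per gene. Grey bars are Cre- and green bars Tet tcKO, and short regions are drawn at a minimum width. Control 5hmC was highest within Uhrf2, Dnmt3a and Mbd2 and lay mostly under 15% along Dnmt1.

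The level in Tet tcKO as a share of that in Cre-, called the share kept, varied much less between genes than the level itself. Weighted by CpGs, it ran from 22.2% at Dnmt1 to 26.7% at Mbd3, with 25.1% at Dnmt3a, 23.8% at Uhrf2 and 24.9% at Mbd2. Dnmt1, with 10.7% in Cre-, and Dnmt3a, with 22.7%, lay 2.88 points apart in the share kept. The level in Tet tcKO was only 2.38% at Dnmt1, and the part of unconverted cytosines in these shares was not tested, so the shares are of signal and not of 5hmC alone. Single regions spread more widely, from 2.79% to 51.1% with a median of 24.0%. The largest share kept was at chr9:20907609-20907885 near the 3' end of Dnmt1, where 14 CpGs went from 10.5% to 5.39%.

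**Figure D5:**
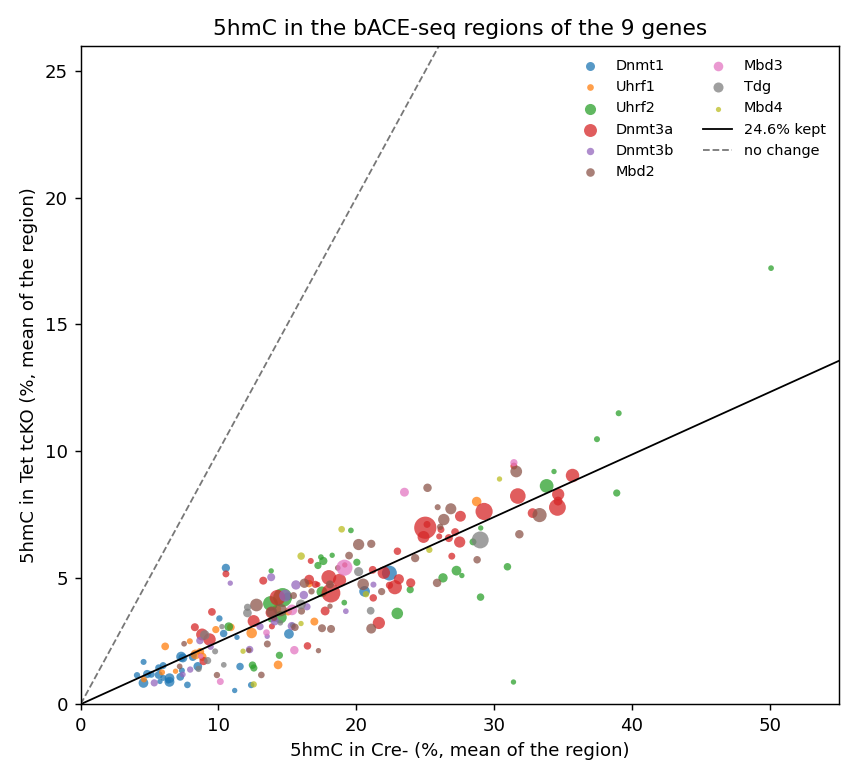
Mean 5hmC level in Tet tcKO against that in Cre- (%, both axes linear) for the 217 bACE-seq regions, coloured by gene, with point area rising with the number of CpGs. The solid line marks the CpG-weighted share kept, 24.6%, and the dashed line equal levels. All points lie below the dashed line, and most lie close to the solid one.

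WGBS gains and 5hmC losses largely shared their positions. Of the 98 gains, 90 (91.8%) did so, beside 81.1% of all gains in the list. Where 50% of the gain had to be covered, the share of member gains was 79.6%. Losses of 5hmC covered 73.2% of the Dnmt3a locus and 59.2% of the Mbd2 locus, which held 37 and 23 of the gains, so much overlap there follows from coverage alone. Over these 90, the WGBS level went from 57.4% to 74.5% and the level of the overlapping 5hmC regions from 23.0% to 5.74%. The 8 gains without such an overlap were the Uhrf2 exon 2 gain, the dense Dnmt3a gain, the Tdg gain over UTR, the Tdg gain in Glt8d2, 1 gain each at Dnmt1 and Dnmt3b, and 2 at Mbd2. Their median rise was 18.3 points, beside 16.5 points for the other 90. In 5 of the 90 the Cre- WGBS level was below that of the overlapping 5hmC region, for example 13.7% against 29.0% at the Tdg start. The levels of the 2 assays are means over different CpGs there, so their differences by region are not read as 5mC and are not given.

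The size of the rise varied with the control level. Of the 98 gains, 10 began under 30% and had a median rise of 16.2 points, 35 began between 30% and 60% with 20.9 points, 35 between 60% and 80% with 16.4 points, and 18 at 80% or more with 8.40 points. Over the whole list the medians of the same classes were 16.6, 21.8, 14.3 and 8.43 points. The rise is measured from the same control level that sets the classes, and only gains are included. A level cannot exceed 100%, so gains that began at 80% or more had little room to rise, in the whole list too. Only 3 member gains had over 10 CpGs per 100 bp. These were the dense gains of Uhrf2 and Dnmt3a described above and chr12:3819039-3819105 in an intron of Dnmt3a, which rose from 78.7% to 88.5% and shared 89.7% of its 30-base words with other places in the genome. The other gain with 50% or more of its words elsewhere, beside the Tdg gain over UTR, was the Dnmt3b gain chr2:153652746-153652947, with 65.5%. Of the 99 WGBS regions, 82 shared under 5%.

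The rest of the pathway was described from 4 lists of other readers, base excision repair, partners of UHRF1 and DNMT1, and NuRD subunits, 38 genes in all. A gain was found at 37 of 38 loci, beside 76.8% of all protein-coding genes, and within 2 kb of a start at 28, beside 51.3%. A 5hmC loss was found at all 38, beside 88.3%. The median share of locus bases in gains was 4.98% over the 8 other readers, 5.20% over the 14 repair genes, 3.71% over the 5 partners and 5.79% over the 11 NuRD subunits, beside 3.36% over all protein-coding genes. In the list called other readers the share ran from 1.18% at Mbd5 to 27.1% at Mbd6, both related to MBD2 by their MBD domain. Whether the products of these 2 genes bind methylated DNA was not examined. In base excision repair it ran from 1.30% at Xrcc1, the scaffold of single-strand break repair, to 19.7% at Ung, the uracil glycosylase. Among the partners, Dppa3, which keeps UHRF1 off chromatin in the oocyte, was the only locus with no gain, and Pcna, the clamp of the replication fork, had 23.6%. Among NuRD subunits it ran from 2.32% at Hdac2 to 23.8% at Mta2. WGBS losses within 2 kb of a start were found at Zbtb33, which encodes the methyl-CpG reader Kaiso, where the level went from 32.8% to 26.9%, and at the NuRD subunit gene Gatad2b, where it went from 23.1% to 12.7%. The deleted genes themselves had gains over 8.56% (Tet1), 3.17% (Tet2) and 39.1% (Tet3) of their loci.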

How the data were processed

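DNA of whole P21 retinas was read by WGBS and by bACE-seq, and the 12 samples were grouped by genotype from their labels, 3 per genotype in each assay. The authors' pipeline, as their methods and processing notes give it, used Trim Galore (0.4.4), Bismark (0.18.2) on mm10, a minimum mapping quality of 10, MethylDackel (0.6.1) and, for the DMRs, DSS with smoothing, a p-value threshold of 0.01 and minima of 3 CpGs and 50 bp. Each deposited mean is a fraction, the modified share that DSS estimated for a group with smoothing on, printed here in percent. Smoothing draws on neighbouring CpGs, so the level of a short region is not the raw share of reads over its own CpGs. The deposited area statistic is a score that adds the evidence of a region's CpGs. The authors' difference column was not used as a result, and the order of the genotypes follows the names of the lists. Replicate spread and depth were not analysed here, since the lists hold group means, and a locus absent from a list is not shown to be unchanged.

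From these values, changes, CpG-weighted means and shares of bases were computed with numpy and pandas (Python 3.11.15) against GENCODE M21 protein-coding genes, with transcript starts and exons from its basic set. Both ends of every region fell on a CpG of GRCm38 when read as 1-based positions. All 9 members are described, each with its WGBS and bACE-seq region of the largest absolute area statistic, all regions over a start site and every WGBS loss, and the other lists by counts with their extremes. Further regions were picked after their values were seen. The members and lists were chosen with earlier results of these data known. The search for 30-base words that occur elsewhere, by exact match on both strands, was added after seeing the data. The interval arithmetic was tested on simulated data. Alternatives were regions of at least 10 CpGs, a difference of at least 0.1 or 0.2, a stricter mean statistic (normal p-value of 0.001), other flanks, start windows and overlaps. The result for 1 gene of the other-reader list is not reported here.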

Additional observations from a re-analysis of the deposited data

How the results depend on the processing

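No paired analysis was possible because the lists hold group means, and no level has an interval. The 12 values summarised over the members were recomputed under alternatives, which gave 85 values. None changed direction, but nearly all are counts or shares, which have no sign to change. Of the 85 values, 68 stayed within 1.5 times and 17 moved further, mostly because fewer regions pass a stricter limit. With at least 10 CpGs there were 43 WGBS gains, 0 WGBS losses and 136 losses of 5hmC, a median of 3.53% of locus bases in gains, and 5 members with a gain at a start. With a difference of at least 0.1 there were 0 WGBS losses and a median of 4.83% of bases in gains. With a difference of at least 0.2 there were 28 gains, 0 WGBS losses and 36 losses of 5hmC, and gains stood at 4 loci and at the start of 2 members. There the medians were 0% of bases in gains and 2.42% in 5hmC losses, 2 members had a 5hmC loss at a start, and 50% of gains overlapped a 5hmC loss. The limit was applied to both lists, so this 50% counts only 5hmC losses that also passed it. With 20 kb on each side there were 327 losses of 5hmC. The WGBS loss at Dnmt3a passed the stricter statistic per CpG. The CpG-weighted WGBS change, here over the gains and the loss together, was 16.8 points. Under all alternatives run it stayed between 16.5 and 25.1 points, and the share kept between 24.0% and 24.8%. The value of 25.1 came from keeping only differences of at least 0.2, a limit that itself raises the mean.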

Other observations

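Some regions in the 5 kb flanks belong to neighbouring genes. Of the 98 WGBS gains at the 9 loci, 3 also overlapped another annotated gene: the Uhrf1 gain in Kdm4b, the Tdg gain in Glt8d2 and the Mbd4 gain in Ift122. Of the 217 losses of 5hmC, 16 did, over Kdm4b and Arrdc5 beside Uhrf1, Glt8d2 beside Tdg, Ift122, Efcab12 and Gm44206 beside Mbd4, Uqcr11 beside Mbd3, S1pr2 beside Dnmt1, Gldc beside Uhrf2, and the antisense genes Dnmt3aos and Dnmt3bos. At Mbd4, the gain and 5 of the 8 losses of 5hmC were of this kind, so most values of that locus lie outside Mbd4 itself. Bisulfite signal at a CpG is not assigned to a strand of transcription, so a region over overlapping genes cannot be assigned to either.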
